A study of Homo sapiens with 4 samples.

Results

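The nuclear genes of respiratory complexes II to V were followed in Jurkat cells, an established line of human T-cell acute lymphoblastic leukaemia (T-ALL). Members were chosen by name alone. They are the protein-coding genes of the deposited table whose symbol begins with SDHA, SDHB, SDHC, SDHD, UQCR, COX and a digit, or ATP5, together with CYC1. This rule was met by 50 of the 25122 genes in the deposited table, and all 50 had a position in GENCODE 29. They comprised 2 subunits and 3 assembly factors of complex II, 9 genes of complex III, 13 subunits and 7 assembly factors of complex IV, and 16 genes of complex V. Another 15 names of the same pattern carried a different biotype, 14 of them pseudogenes, and were left out. SDHA, SDHD, UQCR11, COX8A, COX14, COX15, ATP5PO and ATP5MG were not among the 50, so the members do not cover any of these complexes whole.

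RNA abundance was read from 4 mRNA libraries. In 2 of them the cells carried a control short hairpin RNA (shcontrol), and in the other 2 a short hairpin RNA against BDH1 (shBDH1). BDH1 is the mitochondrial enzyme that interconverts the ketone bodies acetoacetate and 3-hydroxybutyrate. All 4 libraries were Jurkat with the genotype label WT. The study asked about MYC and NKX3.1 downstream of BDH1, and cells with restored MYC were not analysed here. The labels do not give the number of hairpins or clones, nor the time after transduction. They also leave unsaid whether both libraries of a group were grown as separate cultures. The p-values therefore reflect spread among 4 libraries that may be no more than technical.

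Complexes II to IV carry electrons to oxygen in the inner mitochondrial membrane. Complex II, succinate dehydrogenase, also belongs to the citric acid cycle and feeds electrons into ubiquinone. Complex III passes them from ubiquinol to cytochrome c, and complex IV passes them from cytochrome c to oxygen. Complexes III and IV pump protons, and complex V, the ATP synthase, lets protons flow back through a rotating c ring to make ATP in its F1 part. Complex II is encoded wholly in the nucleus. The other 3 combine nuclear subunits with a few subunits encoded in mitochondrial DNA, and assembly factors insert hemes, copper and iron-sulfur clusters without staying in the finished complex. Proliferating cells use this chain for ATP and also to keep up synthesis of aspartate and pyrimidines.

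The recovered reads in genes ranged from 28681511 to 29453383 per library. Values are normalized counts, that is, gene read counts divided by 1 size factor per library, and fold changes are shBDH1 relative to shcontrol on the log2(value + 1) scale with their standard error (SE). The limma test took in genes averaging 10 or more, its p-values were adjusted over 19301 genes (Benjamini-Hochberg), and the threshold was 0.05. BDH1 itself had 1725 and 1911 in shcontrol against 1221 and 1412 in shBDH1, a fall of 0.47 (log2; SE 0.078; adjusted p = 1.5e-05). MYC had 14683 and 14804 against 7453 and 7368, and its adjusted p was 2.7e-18. T lineage markers were present, since all 11 passed the filter, and their summed value was 49786 and 50388 in shcontrol against 58748 and 60009 for shBDH1. Of the 11, 6 were called higher and 1 lower. The share higher was 54.5%, against 20.3% of all genes tested and 26.2% of those with a mean of at least 1000. CD28 and CD7 differed most, by 1.61 and 1.27 (log2), and CD3G was the marker called lower (-0.27). Among 9 measured markers of other lineages, LYZ was at 0 in 3 libraries and at 1 in the other and CD14 stayed at or under 6.1. Of the 7 that could be tested 5 were higher in shBDH1, among them GZMA and PRF1 of cytotoxic lymphocytes, and the summed value was 767 and 786 against 1939 and 1868. The part of these markers in the results was not tested. In such bulk RNA, fewer cells of a kind and less RNA per cell cannot be told apart.

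Of the 50 members 45 passed the filter, with means from 29.4 to 19317, and 16 of them fell while 2 rose. Over all genes tested 20.8% were called lower and 20.3% were called higher, against 35.6% and 4.44% of the members. Calls depend on the level of a gene, and among genes with a mean of at least 1000 the background was 34.7% lower and 26.2% higher. Of the 35 members at that level 14 were lower and 2 higher, which is 40% and 5.71%, so the share that fell was near the background while rises were few. In 25 of the 45 members both shBDH1 libraries lay below both shcontrol libraries, and in 6 both lay above. That order held for 34.9% and 34.1% of all genes tested. At a mean of at least 1000 both shBDH1 libraries lay below in 19 of 35 members (54.3%) and above in 6 (17.1%), against 46.1% and 35.2% of the genes at that level. The median log2 fold change was -0.13 over the members, against -0.01 over all genes tested and -0.04 over those with a mean of at least 1000. Without shBDH1 replicate 1 the members' median was -0.05, and that of the genes with a mean of at least 1000 was -0.04. Fold changes lay below 0 in 35 of the 45 members and above 0 in 10. With a constant prior on the variance, ATP5F1D, CYC1 and SDHB were the 3 members that passed. SDHC, ATP5IF1, ATP5F1C and ATP5F1B missed the threshold with upper-quartile factors (adjusted p from 0.0617 to 0.0935) and with no filter on low values (from 0.0525 to 0.077), and with DESeq2 ATP5IF1, ATP5MC1 and ATP5F1C missed it (0.053, 0.056 and 0.059). Counts by complex or by role are descriptions, and differences between complexes or roles were not tested. Each is to be read against the 20.8% lower and 20.3% higher of all genes tested and the 34.7% and 26.2% of those with a mean of at least 1000.

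**Figure D1:**
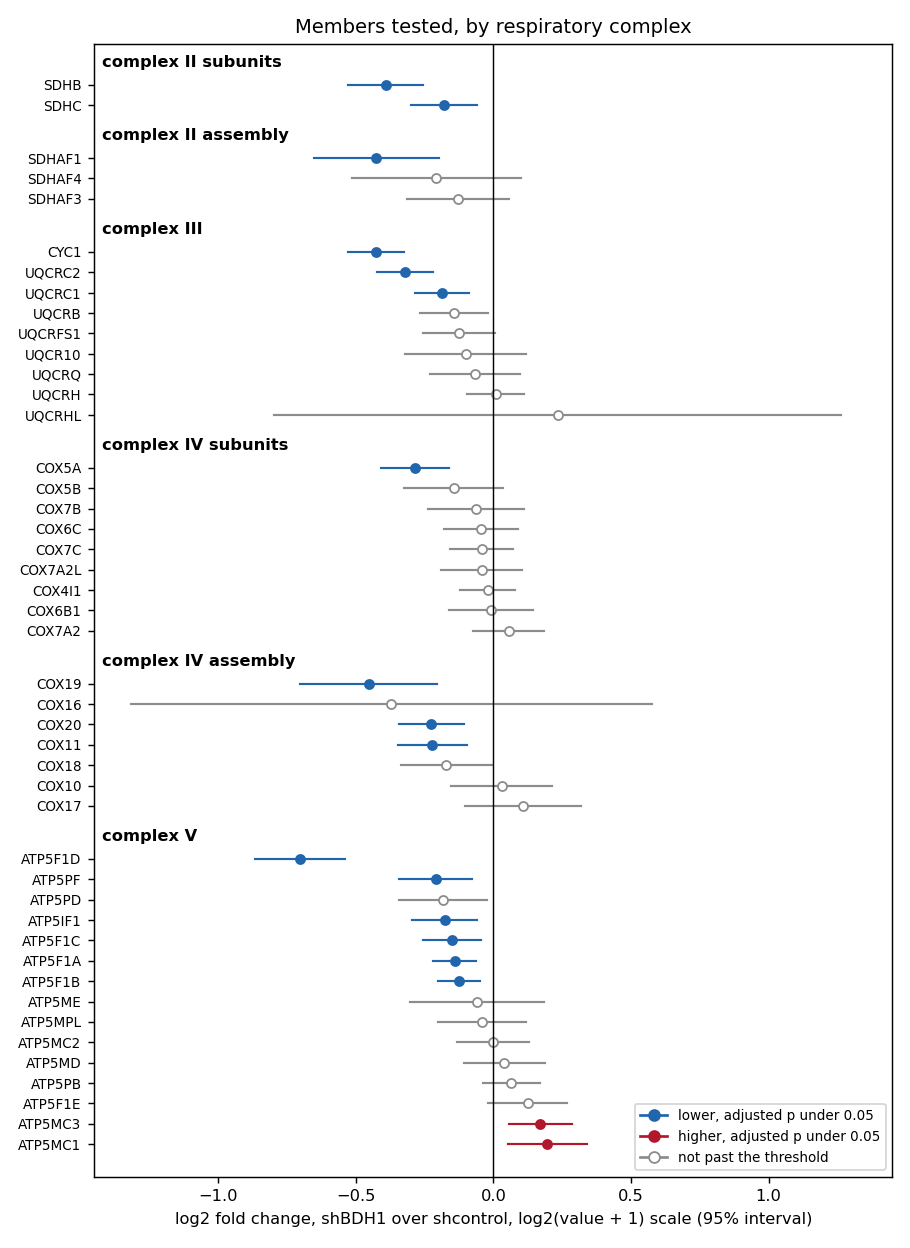
Log2 fold change of each of the 45 members tested, shBDH1 over shcontrol, with its 95% interval, by complex. Filled blue points (16) fell, filled red points (2) rose and open points did not pass the threshold. ATP5F1D lies farthest to the left at -0.70, and 8 of the 9 complex IV subunits are open.

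The promoters of SDHB, UQCRC1, ATP5PF and ATP5MC1 are shown as examples, chosen after their values were seen from the members that passed the test and hold at least 1 of the 4 words searched. They give the YY1 word in complexes II and III, a window with 2 words that also holds the start of GABPA, and the single rise with a matched window. ATP5F1A, with the ETS word, and ATP5F1C, with the NRF1 core, also fell and are not printed, nor is a further ATP5PF window with the NRF1 core and the YY1 word. Sequences are from RefSeq on GRCh38.p14 and run 5′ to 3′ on the gene's own strand from 250 bases before the annotated start to 50 bases after it. Capitals mark AAGATGGCG, the core of the YY1 motif, in SDHB (chr1:17053983-17054282, minus strand) and UQCRC1 (chr3:48609597-48609896, minus strand). In ATP5PF (chr21:25734855-25735154, minus strand) they mark the same word and CCGGAAGT, the ETS word that GABPA binds. In ATP5MC1 (chr17:48892537-48892836, plus strand) they mark CACGTG, the E-box bound by MYC with MAX.
SDHB: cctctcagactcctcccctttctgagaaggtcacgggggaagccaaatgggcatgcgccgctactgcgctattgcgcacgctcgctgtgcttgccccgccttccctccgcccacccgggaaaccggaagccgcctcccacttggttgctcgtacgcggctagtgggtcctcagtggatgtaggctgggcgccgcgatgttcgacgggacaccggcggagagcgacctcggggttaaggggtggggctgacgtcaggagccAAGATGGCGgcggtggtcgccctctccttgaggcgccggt
UQCRC1: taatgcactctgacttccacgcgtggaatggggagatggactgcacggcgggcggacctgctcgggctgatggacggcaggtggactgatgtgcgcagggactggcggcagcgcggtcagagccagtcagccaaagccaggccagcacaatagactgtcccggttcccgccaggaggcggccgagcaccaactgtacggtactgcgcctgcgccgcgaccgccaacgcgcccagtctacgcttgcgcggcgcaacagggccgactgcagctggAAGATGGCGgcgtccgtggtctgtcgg
ATP5PF: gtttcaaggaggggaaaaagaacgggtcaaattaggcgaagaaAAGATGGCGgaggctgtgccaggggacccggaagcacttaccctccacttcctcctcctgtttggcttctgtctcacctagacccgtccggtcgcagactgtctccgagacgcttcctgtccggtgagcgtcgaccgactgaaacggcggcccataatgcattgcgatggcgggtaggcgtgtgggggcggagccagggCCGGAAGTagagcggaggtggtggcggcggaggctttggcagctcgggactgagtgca
ATP5MC1: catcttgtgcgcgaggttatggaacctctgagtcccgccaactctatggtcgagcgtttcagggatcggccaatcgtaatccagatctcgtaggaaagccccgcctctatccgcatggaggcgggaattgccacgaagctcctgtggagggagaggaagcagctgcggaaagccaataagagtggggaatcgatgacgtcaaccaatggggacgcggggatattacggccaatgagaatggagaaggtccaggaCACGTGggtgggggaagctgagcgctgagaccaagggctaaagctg
In SDHB the YY1 word begins at base 11 and in UQCRC1 at base 24 after the start, counting the start as base 1. In ATP5PF the ETS word lies 8 bases and the YY1 word 207 bases before the start, and the E-box of ATP5MC1 begins at base 5. These are matches of letters and were not tested as binding sites.

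Both complex II subunits among the members fell. SDHA and SDHD were not among the members, so these values do not cover the whole complex. SDHB, the iron-sulfur subunit that hands electrons from succinate towards ubiquinone, had normalized counts of 2058 and 2062 in shcontrol against 1582 and 1558 in shBDH1. The libraries within a group were nearly equal and the groups did not overlap. SDHB fell by 0.39 (log2; SE 0.066; limma adjusted p = 1.8e-05), and its mean count dropped by 23.8%. SDHC, a membrane subunit that holds the heme and helps form the ubiquinone site, had 2935 and 3128 against 2575 and 2781. This gave a smaller fall of 0.18 (SE 0.059; adjusted p = 0.015), again without overlap. Without shcontrol replicate 2 the SDHC difference was -0.13 (adjusted p = 0.19) and without shBDH1 replicate 1 it was -0.12 (adjusted p = 0.15), so that call rests on both. The SDHC exons share 774 bases with CFAP126 on the opposite strand, whose counts were 486 and 403 against 295 and 309. The strand setting of the counting is not given in the sources used here, and reads of overlapping genes cannot be told apart without it. SDHB counts were 70.1% and 65.9% of SDHC counts in shcontrol and 61.5% and 56.0% in shBDH1.

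Among the complex II assembly factors, SDHAF1, which helps to insert the iron-sulfur clusters of SDHB, also fell. Its counts were 700.3 and 623 in shcontrol against 493 and 491 in shBDH1, a fall of 0.42 (SE 0.11; adjusted p = 0.0026). Both shBDH1 libraries lay below both shcontrol libraries. Without shcontrol replicate 1, the higher of the pair, the difference was -0.34 (adjusted p = 0.057). SDHAF3, another factor for the iron-sulfur subunit, had 909 and 893 against 802 and 847, with a difference of -0.13 (adjusted p = 0.27). SDHAF4, which helps the flavoprotein subunit to mature, had 368 and 415 against 288 and 397, and its groups overlapped (-0.21, adjusted p = 0.29).

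In complex III, 3 of 9 genes fell, or 33.3%. The background was 20.8% of all genes tested and 34.7% of those with a mean of at least 1000. UQCR10 and UQCRHL were under that mean. The genes that fell were CYC1, UQCRC1 and UQCRC2, and no other subunit among the members passed the test. CYC1, the cytochrome c1 subunit whose heme delivers electrons to cytochrome c, had 4680.1 and 4567 in shcontrol and 3434 and 3443 in shBDH1. Its libraries stood close together within each group, and it fell by 0.43 (SE 0.050; adjusted p = 5.1e-08). UQCRC2, a core subunit on the matrix side, had 4426.5 and 4624 against 3580 and 3663, a fall of 0.32 (SE 0.050; adjusted p = 6.4e-06). UQCRC1, its core partner, had 5049 and 5139 against 4515 and 4436, a fall of 0.19 (SE 0.047; adjusted p = 0.0020). None of these 3 overlapped between groups, and each stayed past the threshold whichever library was left out. UQCRFS1, the Rieske iron-sulfur subunit that takes electrons from ubiquinol, had 2486 and 2502 against 2141 and 2444. Its difference was -0.12 (adjusted p = 0.13), with the second shBDH1 library close to the shcontrol level. Without that library the difference was -0.22 (adjusted p = 0.016).

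The small complex III subunits support the fold and the contact with cytochrome c. UQCRB had 2751 and 2621.5 against 2514 and 2350.2, without overlap, and a difference of -0.14 that missed the threshold (adjusted p = 0.056). Without shBDH1 replicate 1 it was -0.19 (adjusted p = 0.033). UQCR10 differed by -0.10 (adjusted p = 0.49) and UQCRQ by -0.07 (adjusted p = 0.54), and both overlapped between groups. UQCRH, the acidic hinge protein between cytochrome c1 and cytochrome c, had 3936 and 3834 against 3888 and 3926, with a 95% interval of the difference from -0.09 to 0.11. CYC1 counts were therefore 118.9% and 119.1% of UQCRH counts in shcontrol and 88.3% and 87.7% in shBDH1. These ratios are of counts and not of molecules, since the transcripts differ in length. UQCRHL is a near-identical copy of UQCRH, so the counting may have split reads between them. It had 34.9 and 19.4 against 39.3 and 24.1, and its SE of 0.50 leaves its difference of 0.23 undetermined.

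Of the 9 structural subunits of complex IV that could be tested 1 fell (11.1%, against 20.8% of all genes tested and 34.7% of those with a mean of at least 1000). Fold changes lay below 0 in 8 of the 9. COX5A, a subunit on the matrix side, had 2799 and 2639.9 in shcontrol and 2201 and 2266 in shBDH1. It fell by 0.28 (SE 0.060; adjusted p = 3.2e-04), its groups did not overlap, and the call was kept whichever library was left out. COX4I1, the subunit through which ATP and ADP regulate the enzyme, had 5008 and 5122 against 4792 and 5206. The 2 shBDH1 libraries lay on either side of both shcontrol libraries, and the interval of the difference ran from -0.12 to 0.08. COX5B, a zinc-binding subunit, had 1098 and 1008 against 909 and 996, with a difference of -0.14 (adjusted p = 0.20). The peripheral subunits COX6B1, COX6C, COX7A2, COX7A2L, COX7B and COX7C had differences between -0.06 and 0.06. COX7A2L, also called SCAF1 or COX7RP, joins complexes III and IV in supercomplexes, and it had 1573.0 and 1572.9 against 1459 and 1599. Over the 8 subunits that did not pass, the intervals of the differences reached from -0.32 to 0.18. The median of the 9 was -0.04.

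Forms of complex IV subunits known from other tissues were almost silent. COX4I2, the lung form of COX4, had at most 4.1 in any library, and COX7A1, the form of heart and skeletal muscle, at most 6.9. COX6B2, the testis form, had at most 9.1. These 3 were below the filter and not tested. COX6A1 is the broadly expressed form of COX6A, yet it had between 0 and 3.9. It shares 175 exon bases on the same strand with the read-through gene AL021546.1, which had 770.1 and 928 in shcontrol and 726 and 754 in shBDH1, so the COX6A1 count cannot be read as its level. ATP5MF of complex V is a similar case. It had 8.2 and 4.1 against 2.9 and 0, and it shares 177 exon bases on the same strand with the read-through gene ATP5MF-PTCD1.

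Of the 7 assembly factors of complex IV among the members 3 fell and none rose. That is 42.9% lower, against 20.8% of all genes tested and 34.7% of those with a mean of at least 1000. COX16, COX17 and COX19 were under that mean. Each of the 3 calls was lost when a single library was left out. COX19, which takes part in copper delivery to the enzyme, had 621 and 558 in shcontrol and 469 and 394 in shBDH1. It fell by 0.45 (SE 0.12; adjusted p = 0.0033), and without shBDH1 replicate 2 the difference was -0.33 (adjusted p = 0.075). COX20, a chaperone of the COX2 subunit, had 3496 and 3169 against 2871 and 2822, a fall of 0.23 (SE 0.057; adjusted p = 0.0021). Without shcontrol replicate 1 it was -0.16 (adjusted p = 0.11). The COX20 exons share 3502 bases with HNRNPU on the opposite strand, and HNRNPU had far more reads, 32701 and 32274 against 33616 and 33181. COX11, which delivers copper to the COX1 subunit, had 3039 and 2832 against 2396 and 2644, a fall of 0.22 (SE 0.061; adjusted p = 0.0044). Without shcontrol replicate 1 it was -0.17 (adjusted p = 0.088) and without shBDH1 replicate 1 it was -0.15 (adjusted p = 0.089). COX11 shares 909 bases with TOM1L1 on the opposite strand, which had 1504 and 1538 against 1232 and 1116.

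The other 4 assembly factors did not pass. COX18, which inserts the COX2 subunit into the membrane, had 1226 and 1196 against 1104 and 1049, without overlap (-0.17, adjusted p = 0.091). COX10, which makes heme O on the way to heme A, differed by 0.03 (adjusted p = 0.82). COX17, the copper chaperone that supplies the other copper factors, differed by 0.11 (adjusted p = 0.43). COX16 had 31.8 and 40.9 against 30.5 and 25.1, and it shares 671 bases with the read-through gene SYNJ2BP-COX16 on the same strand.

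**Figure D2:**
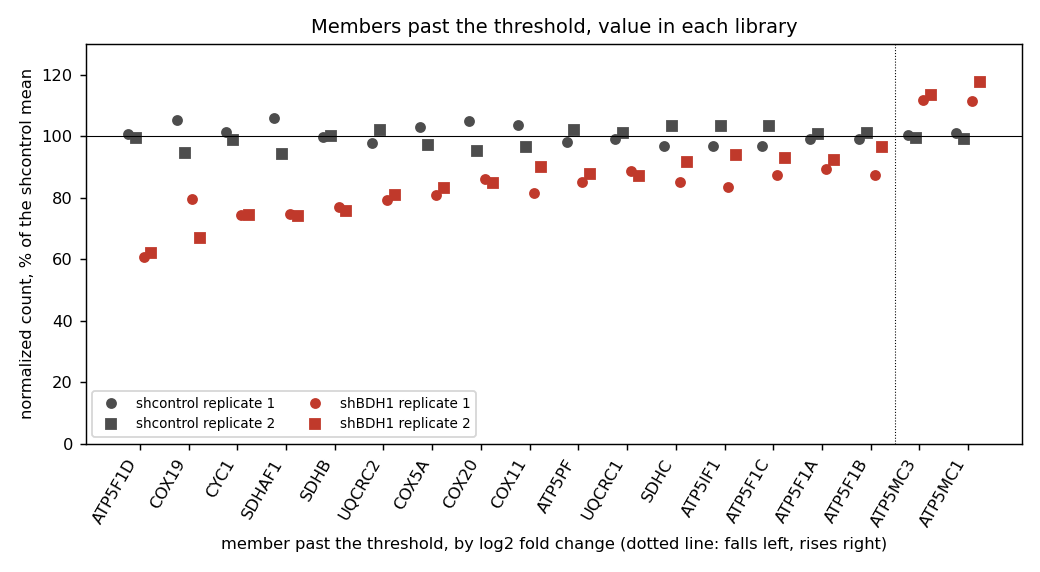
Normalized count of the 18 members past the threshold in each library, as a percentage of the shcontrol mean, ordered by log2 fold change, with falls left of the dotted line. The 2 ATP5F1D points of shBDH1 lie farthest below 100%, and of the 18 plotted ATP5MC3 and ATP5MC1 are the ones whose shBDH1 points lie above it.

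Complex V held the largest fall among the members and also both rises. In its F1 part, where ATP is made, 4 of the 5 subunits fell (80.0%, against 34.7% of genes with a mean of at least 1000), 3 of them by small amounts that were lost without shcontrol replicate 2. ATP5F1D, the delta subunit of the central stalk that couples the c ring to F1, had 1422 and 1402 in shcontrol against 859 and 876 in shBDH1. The replicates were nearly equal in each group, the gene fell by 0.70 (SE 0.080; adjusted p = 3.3e-08), and its mean count dropped by 38.6%. Larger falls on the log2 scale were seen in 689 of the 4020 genes called lower. ATP5F1A, the alpha subunit, had 11040.0 and 11227 against 9930.0 and 10275, a fall of 0.14 (SE 0.038; adjusted p = 0.0037). ATP5F1B, the catalytic beta subunit and the member with the highest counts, had 19949 and 20335 against 17579 and 19404, a fall of 0.13 (SE 0.038; adjusted p = 0.0084). ATP5F1C, the gamma subunit that forms the rotating shaft, had 4352 and 4643 against 3930.5 and 4178, a fall of 0.15 (SE 0.052; adjusted p = 0.021). The groups of these 3 did not overlap, but the falls were small and depended on single libraries. Without shcontrol replicate 2 the differences were -0.13 for ATP5F1A (adjusted p = 0.079), -0.11 for ATP5F1B (adjusted p = 0.10) and -0.10 for ATP5F1C (adjusted p = 0.27). Without shBDH1 replicate 1 they were -0.05 for ATP5F1B (adjusted p = 0.19) and -0.11 for ATP5F1C (adjusted p = 0.16).

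ATP5F1E, the epsilon subunit that sits beside delta in the central stalk, stood apart from the other F1 genes. It had 1721 and 1666 in shcontrol and 1746 and 1951 in shBDH1, with a difference of 0.12 (SE 0.070; adjusted p = 0.16). Without shBDH1 replicate 1 the difference was 0.20 (adjusted p = 0.049). Its exons share 1188 bases with TUBB1 on the opposite strand, a gene with 54.4 and 74.6 against 135 and 111. Relative to ATP5F1A counts of the same library, ATP5F1D counts were 12.9% and 12.5% in shcontrol against 8.65% and 8.53% in shBDH1. The corresponding values for ATP5F1E were 15.6% and 14.8% against 17.6% and 19.0%. Relative to alpha, the delta counts were thus lower in both shBDH1 libraries and the epsilon counts higher. An exact two-sided permutation test of 2 libraries against 2 cannot go below 0.33, and the ratios were not tested in another way.

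The c ring is built from 1 mature protein that is encoded by ATP5MC1, ATP5MC2 and ATP5MC3, which differ in their import sequences. ATP5MC3 had 2705 and 2679.8 in shcontrol and 3006 and 3054 in shBDH1, a rise of 0.17 (SE 0.056; adjusted p = 0.015). ATP5MC1 had 1485 and 1454 against 1639 and 1728, a rise of 0.20 (SE 0.070; adjusted p = 0.026). In both genes the shBDH1 libraries lay above the shcontrol libraries. ATP5MC2 had 2053 and 2278 against 2163 and 2158, with an interval of the difference from -0.13 to 0.13. The sum of the 3 was 31.3% and 31.5% of the ATP5F1B count in shcontrol and 38.7% and 35.8% in shBDH1. Neither rise was firm: without shcontrol replicate 1, shcontrol replicate 2 or shBDH1 replicate 2 the adjusted p of ATP5MC3 was 0.064, 0.090 and 0.058. For ATP5MC1 it was 0.068, 0.13 and 0.15.

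**Figure D3:**
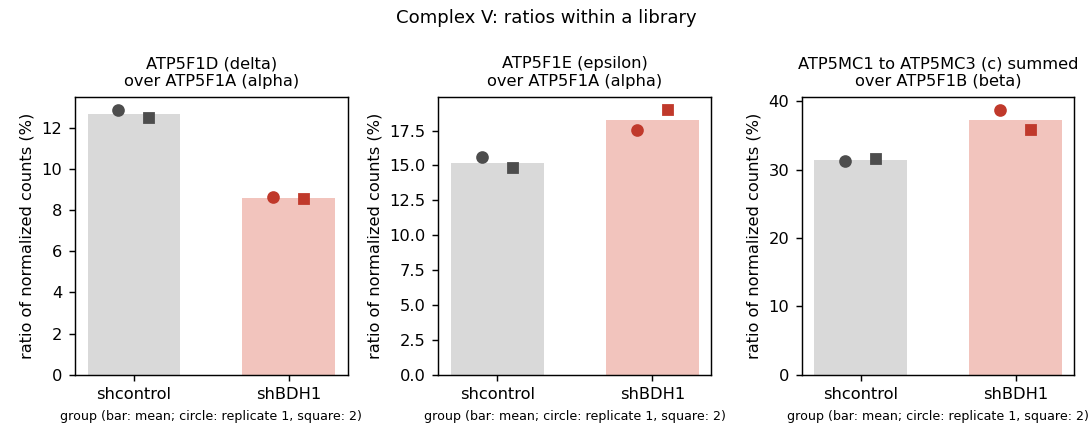
Ratios of normalized counts within each library, in percent, for complex V, with a bar at the mean of each group of 2 libraries. ATP5F1D over ATP5F1A is lower in both shBDH1 libraries, and ATP5F1E over ATP5F1A and the summed c-subunit genes over ATP5F1B are higher in both.

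Of the remaining complex V members, the inhibitor and 1 stalk subunit fell. ATP5IF1, the inhibitor that blocks ATP hydrolysis when the membrane potential is lost, had 3729 and 3986 in shcontrol and 3218 and 3619 in shBDH1. It fell by 0.18 (SE 0.058; adjusted p = 0.015), and without shcontrol replicate 2 or shBDH1 replicate 1 the difference was -0.13 (adjusted p = 0.18) or -0.09 (adjusted p = 0.26). ATP5PF, the F6 subunit of the peripheral stalk that holds F1 still, had 2047 and 2127 against 1776 and 1832, a fall of 0.21 (SE 0.065; adjusted p = 0.0099). Without shcontrol replicate 2 it was -0.18 (adjusted p = 0.099) and without shBDH1 replicate 1 it was -0.19 (adjusted p = 0.058). ATP5PD, the d subunit of the same stalk, had 1414 and 1275 against 1200.1 and 1165.5, without overlap (-0.18, adjusted p = 0.064). Without shcontrol replicate 2 its difference was -0.26 (adjusted p = 0.037). ATP5PB, the b subunit, differed the other way, with 3785 and 3937 against 3996 and 4084 (0.07, adjusted p = 0.32). The membrane subunits ATP5ME, ATP5MPL and ATP5MD had differences between -0.06 and 0.04, and none passed. Exons of ATP5PD share 340 bases with KCTD2 on the opposite strand, which had 2259 and 2148 in shcontrol against 1875 and 1775 in shBDH1. Those of ATP5PB share 350 bases with WDR77 (1628 and 1522 against 1386 and 1314), also on the opposite strand. Those of ATP5ME share 579 bases with MYL5 (672 and 633 against 555 and 582) in the same way.

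ATP5PF and GABPA, a subunit of an ETS factor that binds promoters of respiratory genes, start from a shared region on opposite strands. In RefSeq GABPA begins at 25734972 of chromosome 21, inside the ATP5PF window shown above, and in GENCODE 29 the exons of both share 413 bases. GABPA had 3147 and 3196 in shcontrol and 2414 and 2267 in shBDH1, a fall of 0.44 (SE 0.058; adjusted p = 4.1e-07). ATP5PF fell by 0.21, so the pair moved the same way with different sizes. Reads in the shared exon bases cannot be assigned without the strand setting.

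RefSeq promoter windows matched 36 of the 50 members. On either strand the E-box CACGTG was in 3 of them, or 8.33%, against 8.78% of the 27305 genes with a window and 12.2% of the 11307 of them that were tested here. The NRF1 core CGCATGCG was in 7 (19.4%, against 2.46% of genes with a window and 4.21% of those tested). The ETS word CCGGAAGT was in 8 (22.2%, against 4.95% and 8.76%), and the YY1 word AAGATGGCG was in 4 (11.1%, against 2.14% and 4.19%). None of these words contains another, and they were chosen because they are known from respiratory promoters. Of the 3 members with an E-box, ATP5MC1 rose, and ATP5ME and ATP5PB did not pass, and of all tested genes with that word 21.4% were higher and 30.5% lower. Of the 6 tested members with the NRF1 core ATP5F1C and ATP5PF fell, and 33.8% of all tested genes with it were lower. Of the 4 with the YY1 word SDHB, UQCRC1 and ATP5PF fell and COX10 did not pass, and 39.0% of all tested genes with that word were called lower. Of the 8 with the ETS word ATP5F1A and ATP5PF fell and 6 did not pass, and 37.1% of all tested genes with it were lower. CYC1 and ATP5F1D had no matched window.

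Levels per kilobase are given for the members highest in each complex. They are the mean normalized count in shcontrol divided by the length of 1 principal GENCODE transcript. They were 10953 for ATP5F1B and 7809 for ATP5IF1 in complex V, 7154 for COX4I1 and 4788 for COX5A in complex IV, and 6432 for UQCRH and 3729 for CYC1 in complex III. In complex II they were 1787 for SDHB and 593 for SDHAF1. SDHC had more counts than SDHAF1 (shcontrol means 3031 and 662). It came to 223 per kilobase, since the transcript taken for it was 13566 bases long. The rule for the transcript was changed once, after implausible lengths were seen. Annotated lengths decide this order, since dividing by the union of all exons gave 8675 for ATP5F1B but 1734 for ATP5IF1 and 1057 for COX4I1. On GRCh38 the GENCODE position of ATP5F1D is chr19:1241746-1244826 on the plus strand, and that of UQCRC2 is chr16:21952660-21983660 on the plus strand. COX5A lies at chr15:74919791-74938168 and COX19 at chr7:898778-975599, both on the minus strand. SDHAF1 lies at chr19:35995199-35996315 on the plus strand and ATP5MC3 at chr2:175176258-175184607 on the minus strand.

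Partners of these complexes outside the rule were read from lists of names. Of the 6 subunits of complexes III to V encoded in mitochondrial DNA, MT-ATP6 was the one past the threshold, with a difference of -0.07 (adjusted p = 0.042). That is 16.7% lower, against 34.7% of genes with a mean of at least 1000, and the median of the 6 was -0.01. Their summed value was 733541 and 731055 in shcontrol and 737791 and 720518 in shBDH1. CYCS, cytochrome c itself, had 5842 and 6175 against 5176 and 5358, a fall of 0.19 (adjusted p = 0.0015), and HCCS, which attaches its heme, differed by 0.24 (adjusted p = 0.071). Of 6 complex III assembly factors 2 fell (33.3%, against 34.7% of genes with a mean of at least 1000). BCS1L, which inserts the Rieske subunit, had 1196 and 1303 against 782 and 918, a fall of 0.56 (adjusted p = 9.3e-06), and UQCC2, a factor for cytochrome b, fell by 0.20 (adjusted p = 0.027).

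Among 19 further complex IV factors measured, 5 fell and 1 rose, with a median of -0.09. The 26.3% that fell lies between the background of all genes tested (20.8%) and that of genes with a mean of at least 1000 (34.7%). The falls were 0.61 for TMEM177, 0.52 for COA5, 0.34 for SCO1, which delivers copper to COX2, 0.21 for LRPPRC, which stabilises mitochondrial mRNAs, and 0.17 for OXA1L, the inner-membrane insertase. CMC2 rose by 0.41 (adjusted p = 0.015). Of 5 complex V factors tested 1 was called lower, DMAC2L, which fell by 0.21 (adjusted p = 0.045). That is 20%, against 20.8% of all genes tested and 34.7% of those with a mean of at least 1000. Among 11 transcriptional regulators of nuclear respiratory genes 4 fell and 2 rose, or 36.4% and 18.2%, near the 34.7% and 26.2% of genes with a mean of at least 1000. Beside MYC and GABPA, GABPB2 fell by 0.35 (adjusted p = 4.9e-04) and PPRC1, a coactivator of the PGC-1 family, by 0.23 (adjusted p = 6.3e-04). NRF1 rose by 0.25 (adjusted p = 0.011) and YY1 by 0.18 (adjusted p = 0.0042).

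The 2 shBDH1 libraries did not give the members the same median. Relative to the shcontrol mean, the median of the 45 members was -0.16 in shBDH1 replicate 1 and -0.05 in replicate 2, while the median of all genes tested lay between -0.0046 and 0.00093 in the 4 libraries. Of the 45 members 30 were lower in replicate 1 than in replicate 2 (66.7%), against 50.3% of all genes tested and 52.5% of those with a mean of at least 1000. Between the shcontrol libraries 26 of the 45 were lower in replicate 1 (57.8%), against 49.5% of all genes tested, so a lean of the same direction was seen there too. The 3 assembly factors of complex II had medians of -0.42 and -0.09, and the complex IV subunits had -0.11 and 0.02. Assembly factors of complex IV had -0.21 in both, and complex II subunits had -0.31 and -0.26. Summed over all 50 members, normalized counts were 121949 and 123646 in shcontrol against 110016 and 115495 in shBDH1, and the sum dropped by 8.18%. Summed counts dropped by 16.6% for SDHB and SDHC of complex II and dropped by 12.7% for the complex III members. The sum dropped by 6.18% for complex V and dropped by 3.99% for the complex IV subunits. The members' share of all normalized counts was 0.414% and 0.420% in shcontrol and 0.380% and 0.399% in shBDH1.

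**Figure D4:**
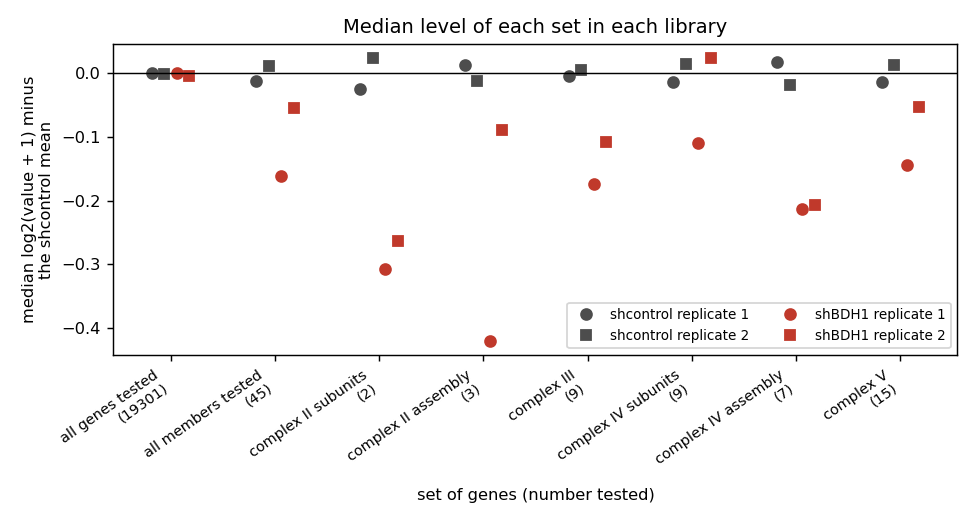
Median over each set of the log2(value + 1) minus the shcontrol mean, in each library, with the number of genes tested in brackets. The 4 libraries coincide near 0 for all genes tested, and for the members shBDH1 replicate 1 lies at -0.16 and replicate 2 at -0.05.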

How the data were processed

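The authors sequenced mRNA libraries as paired ends, per the labels' protocols. The build hg38, FastQC 0.11.9 and HISAT2 2.2.1 are named, per the submitters' processing notes. Not given in the sources used here are the counter, its annotation, its strand setting and the tool behind the scaling.

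The deposited values are a normalized signal, found from the values to be read counts divided by 1 size factor per library. Every value was a whole number of reads within 0.01. The shcontrol size factors were 0.974 and 0.978, and those of shBDH1 1.017 and 0.994.

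Genes with a mean of at least 10 (19301) were tested with limma 3.58.1 (R 4.3.3) on log2(value + 1), letting the prior variance follow intensity, with 2 residual and 25.8 prior degrees of freedom, and Benjamini-Hochberg adjustment. The pseudocount understates changes of low genes. Alternatives used edgeR 4.0.16 and DESeq2 1.42.0 on the recovered reads, other scalings, pseudocounts and filters, a replicate block, and each library left out. The fits were tested on simulated data, with changes placed only in genes above a floor of reads. Both that floor and the share that had to be found were set after first runs in which small changes were missed. The changes placed in the run kept were all larger than those of the members past the threshold other than ATP5F1D. How well such smaller changes are found was not tested.

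The members, gene lists and promoter words were chosen with earlier results of these data known. Any member could be named; values in every library were planned for catalytic, core, F1 and inhibitor genes, for members past the threshold and for paralog forms. Positions are from GENCODE 29 and promoters from RefSeq.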

Additional observations from a re-analysis of the deposited data

How the results depend on the processing

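Of the 16 falls, those of ATP5F1D, CYC1 and SDHB passed the threshold under all 15 alternatives, and 13 were lost under at least 1, as were both rises. No fold change of a member past the threshold turned its sign. With a constant prior on the variance, 3 members were lower and 0 higher, against 1246 lower and 1598 higher over all genes. DESeq2 called 14 lower and 1 higher, and edgeR with TMM or limma-voom 16 and 2. Upper-quartile factors gave 12 and 2, and no filter on low values also 12 and 2. Leaving out 1 library gave 11 to 16 lower and 0 to 3 higher, with medians from -0.16 to -0.054, the last without shBDH1 replicate 1; 0 were higher without shcontrol replicate 1, shcontrol replicate 2 or shBDH1 replicate 2. A lone library is then assumed to vary like the other group. The labels do not say that replicate numbers mark a shared batch, and same-numbered libraries deviated together with a correlation of 0.035 over 13922 genes. The replicate block gave 17 lower and 2 higher. With 2 libraries a group, the median SE of the members was 0.066, so differences near 0.1 could mostly not be told from 0.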
